A study of Homo sapiens with 6 samples.

Results

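The peptidylarginine deiminases are a family of 5 enzymes, PADI1, PADI2, PADI3, PADI4 and PADI6, and all 5 genes had a row among the 28395 in the count table. They were taken by gene symbol and NCBI gene identifier. The family was chosen from its difference between these same libraries, so the values of its members in WT and NUAK2-CR cells are given as a description, with no test. Bulk RNA-sequencing covered 3 libraries of U251 WT cells and 3 libraries of U251 NUAK2-CR cells, where U251 (U251MG in the labels) is a glioblastoma line of human origin and NUAK2-CR marks cells in which the kinase gene NUAK2 was targeted with CRISPR-Cas9. Per the study's methods, a guide RNA against NUAK2 was delivered with Cas9 in GFP and mCherry lentiviral vectors, and cells carrying both colors were sorted to derive clones. No label gives a clone for the edited libraries or a vector for the WT libraries, so the effects of NUAK2 targeting, of clone and of vector cannot be told apart. The methods speak in general of at least 3 independent experiments, but no label says that the numbered libraries were separate cultures, so p-values measure only the spread between these libraries, which may be technical.

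Peptidylarginine deiminases convert arginine residues of proteins to citrulline, a calcium-dependent reaction that removes a positive charge and is called deimination or citrullination. PADI2 is the member best known from brain, where it deiminates glial proteins such as GFAP and myelin basic protein. PADI4 carries a nuclear localization signal, modifies histones and is best known from neutrophils. PADI1 and PADI3 act on keratins, filaggrin and trichohyalin in skin and hair follicles, and PADI6 is an oocyte protein of the subcortical maternal complex.

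Totals ranged from 29648445 to 55574081 counts per library. Normalized counts are given throughout, that is, counts brought to a common effective library size by TMM normalization. A count of 0 allows a true level of up to 3 counts, which corresponds to 1.99 to 3.22 normalized counts in the WT libraries and 3.29 to 3.81 in the NUAK2-CR libraries. These limits cover counting error only. NUAK2 itself (gene 81788) had 1926, 1457 and 1580 normalized counts in the 3 WT libraries, in replicate order as throughout, and 798.7, 961.2 and 848.6 in the NUAK2-CR libraries. Its transcript was lower in all 3 NUAK2-CR libraries but still present, at 52.6% of WT (log2 fold change -0.93, SE 0.11, adjusted p = 1.8e-05, edgeR quasi-likelihood test). The study reports deletion of NUAK2 by immunoblot and qPCR in independent clones. That qPCR measures transcript as these counts do, but no label ties these libraries to a clone, and the difference between the measures was not examined. Transcript counts do not measure the protein, so the success of the targeting was not tested here. Of the defining glioma and astrocyte markers, VIM, NES, CD44, SOX2, GFAP and SLC1A3 were measured in both groups. S100B was low, and the astrocyte water channel AQP4 had too few counts to be tested.

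PADI2, PADI4, PADI3 and PADI1 all had lower transcript levels in every NUAK2-CR library than in any WT library, and PADI6 had next to no counts in either group. PADI2 and PADI4 kept 1.42% and 0.66% of their WT levels, whereas PADI3 and PADI1 kept 29.6% and 37.3%. The summed level of the family was 23578 ± 1368 normalized counts (SD, n = 3) in WT cells and 1271 ± 86.9 (SD, n = 3) in NUAK2-CR cells, 5.39% of WT. Because these are bulk libraries, fewer cells of a type and less RNA per cell cannot be told apart. Over the 14873 genes tested, 28.2% had an adjusted p under 0.05 and were lower in NUAK2-CR cells, 26.3% were higher, and in 31.5% all 3 NUAK2-CR libraries lay below all 3 WT libraries. Nothing is read from the members' own count beside these shares, since this contrast chose them.

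PADI2 (gene 11240, chr 1, 17066761 to 17119451, minus strand), the member known from brain, had 20172, 18399 and 18381 normalized counts in WT cells. In NUAK2-CR cells it had 251.4, 254.5 and 300.8. The groups lay far apart, and within each group the replicates stayed close, with a coefficient of variation of 5.42% in WT and 10.3% in NUAK2-CR cells. The mean went from 18984 ± 1029 to 268.9 ± 27.7 (SD, n = 3 each), a level 70.6-fold lower (log2 fold change -6.14, SE 0.10). Only 0.309% of the genes tested had a lower log2 fold change.

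PADI4 (gene 23569, chr 1, 17308197 to 17364004, plus strand), the member with a nuclear localization signal, had 1455, 1240 and 1248 normalized counts in WT cells. In NUAK2-CR cells it had 2.54, 4.82 and 18.7, from 2, 4 and 17 reads counted. NUAK2-CR replicates 1 and 2 were thus close to the limit of detection, and replicate 3 stood above them. The mean went from 1314 ± 121.8 to 8.68 ± 8.73 (SD, n = 3 each), 151-fold lower, and the coefficient of variation reached 101% in NUAK2-CR cells. The log2 fold change was -7.16 (SE 0.27), with 0.262% of tested genes lower still, and it was -8.42 (SE 0.24) without NUAK2-CR replicate 3. PADI2 and PADI4 lay beyond a log2 fold change of 2 in size, the study's threshold, at which 2.83% of tested genes were lower in NUAK2-CR cells and 1.89% were higher.

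NUAK2-CR replicate 3 also held slightly more PADI2 transcript, at 1.58% of the WT mean against 1.32% and 1.34% in replicates 1 and 2. For PADI4 the corresponding shares were 1.42%, 0.193% and 0.367%. In genes with a WT mean of at least 100 normalized counts and no count in both other NUAK2-CR libraries, replicate 3 held 8 counts over 9 genes, 0.489% of their WT level. The same count was 23 over 12 genes in replicate 2 (1.17%) and 1 over 8 genes in replicate 1 (0.0755%). These genes differ between libraries, and the part of WT reads in the PADI4 counts was not tested.

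PADI3 (gene 51702, chr 1, 17249098 to 17284233, plus strand), known from the hair follicle, had 3209, 2814 and 2895 normalized counts in WT cells and 805.0, 925.0 and 905.7 in NUAK2-CR cells. The groups did not overlap, and every NUAK2-CR library kept at least 634 reads. The mean went from 2973 ± 208.7 to 878.6 ± 64.4 (SD, n = 3 each), 3.38-fold lower (log2 fold change -1.76, SE 0.08), and 3.39% of tested genes had a lower value.

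PADI1 (gene 29943, chr 1, 17205128 to 17246007, plus strand), an epidermal member, had 322.2, 302.9 and 295.6 normalized counts in WT cells. In NUAK2-CR cells it had 113.0, 119.4 and 110.9. Its replicates varied least of the family, with coefficients of variation of 4.47% and 3.87%. The mean went from 306.9 ± 13.7 to 114.4 ± 4.43 (SD, n = 3 each), 2.68-fold lower (log2 fold change -1.42, SE 0.15), with 4.49% of tested genes lower still. PADI3 and PADI1 did not reach the log2 threshold of 2.

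PADI6 (gene 353238, chr 1, 17372196 to 17401699, plus strand), the oocyte member, had 0, 0 and 2 counts in the WT libraries and 0 counts in each NUAK2-CR library. Both groups were at or under the limit that a count of 0 allows, so PADI6 was not tested and has no fold change. Thus 4 of the 5 members passed the filter on low counts, PADI4 through its WT libraries alone.

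**Figure D1:**
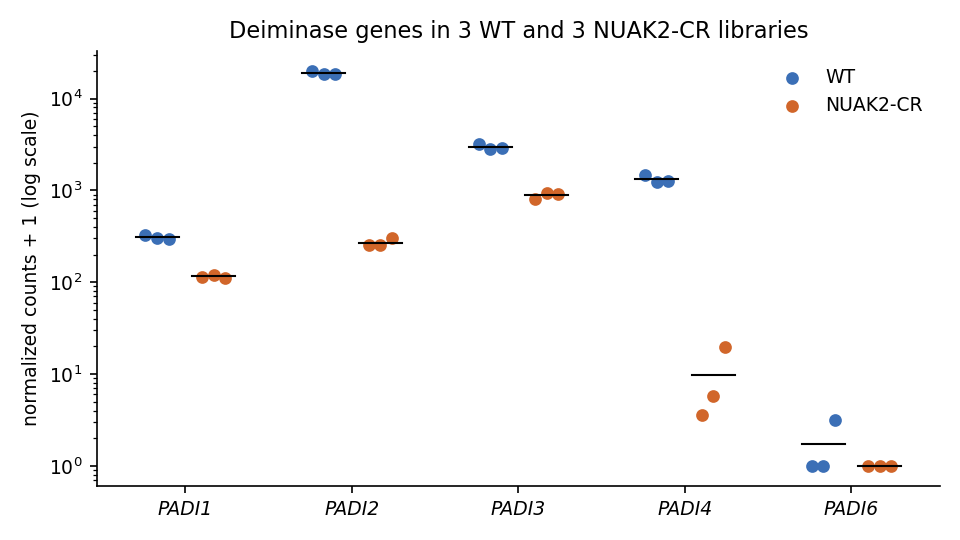
Normalized counts plus 1 of PADI1, PADI2, PADI3, PADI4 and PADI6 in each library on a log axis, WT in blue and NUAK2-CR in orange; points are libraries and short lines are group means (n = 3 each). PADI2 and PADI4 show the widest gaps between groups, PADI3 and PADI1 narrower ones, and PADI6 lies at or near 0 in all 6 libraries.

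Levels of different members were compared per kilobase of the MANE Select transcript, which has 16 exons in every member. In WT cells the order was PADI2 (4353 ± 235.9 normalized counts per kb), PADI3 (932.1 ± 65.4), PADI4 (579.7 ± 53.7) and PADI1 (79.8 ± 3.57; SD, n = 3 each), with PADI6 last. In NUAK2-CR cells the order became PADI3 (275.5 ± 20.2), PADI2 (61.7 ± 6.35), PADI1 (29.8 ± 1.15) and PADI4 (3.83 ± 3.85; SD, n = 3 each), again with PADI6 last. In neither group did the library values of PADI1, PADI2, PADI3 and PADI4 overlap between neighbors in the order. PADI3 therefore took the first place that PADI2 held in WT cells, and PADI4 moved below PADI1.

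The makeup of the family changed accordingly. On the per-kilobase scale PADI2 was 72.8% to 73.7% of the family in the WT libraries and 15.3% to 17.7% in the NUAK2-CR libraries. PADI3 went the other way as a share, from 15.4% to 15.8% in WT to 72.8% to 76.0% in NUAK2-CR libraries, although its own level was lower. PADI4 went from 9.55% to 10.1% of the family to 0.329%, 0.558% and 2.11%, and PADI1 from 1.32% to 1.38% to between 7.39% and 8.63%.

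Ratios within a library show the same split without any scaling between libraries. PADI2 per kb was 4.6, 4.78 and 4.64 times PADI3 in the WT libraries and 0.228, 0.201 and 0.243 times PADI3 in the NUAK2-CR libraries. PADI4 per kb was 0.638, 0.62 and 0.606 times PADI3 in WT and 0.00444, 0.00734 and 0.029 times PADI3 in NUAK2-CR libraries. The ratio of PADI1 to PADI3 differed far less, at 0.0832, 0.0893 and 0.0847 in WT and 0.116, 0.107 and 0.102 in NUAK2-CR libraries, although these values do not overlap either.

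**Figure D2:**
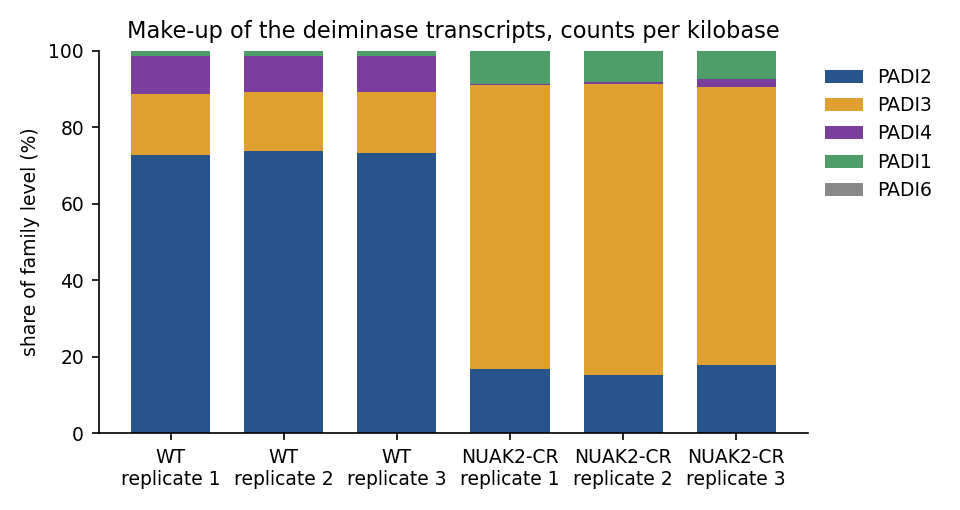
Share of the family's summed normalized counts per kb, in percent, taken by each member in each of the 6 libraries (stacked bars from 0). PADI2 fills over 70% of each WT bar and PADI3 over 70% of each NUAK2-CR bar, with PADI4 at 0.329% to 2.11% in NUAK2-CR libraries.

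Reads of one member could in principle be counted for another, since the genes arose from a common ancestor. The coding sequences of the 10 pairs of members shared 57.9% to 67.5% of their bases, and the longest exact run shared by any pair was 30 bases, shorter than the sequencing reads. Of the genes in the count table, only the microRNA gene MIR3972 overlaps a member. It lies inside PADI3 and had 2.2 to 14.0 normalized counts, against at least 805.0 for PADI3.

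The promoters of PADI2, PADI4 and PADI1 are shown because they differ in sequence. Any link between that sequence and the size of a member's difference between groups was not tested. Each window runs from 250 bases before to 50 bases after the annotated start (RefSeq, GRCh38.p14), and 4 of the 5 members had an entry. Capitals mark matches on either strand to 4 motifs. The core promoter motif known as the TATA box was searched with the letters TATAAA. The GC box was searched as GGGCGG, the site of the factor NF-Y as CCAAT, and the AP-1 site with the letters TGANTCA. The windows are PADI2 at chr1:17119402-17119701 (minus strand), PADI4 at chr1:17307947-17308246 (plus strand) and PADI1 at chr1:17204878-17205177 (plus strand).
PADI2: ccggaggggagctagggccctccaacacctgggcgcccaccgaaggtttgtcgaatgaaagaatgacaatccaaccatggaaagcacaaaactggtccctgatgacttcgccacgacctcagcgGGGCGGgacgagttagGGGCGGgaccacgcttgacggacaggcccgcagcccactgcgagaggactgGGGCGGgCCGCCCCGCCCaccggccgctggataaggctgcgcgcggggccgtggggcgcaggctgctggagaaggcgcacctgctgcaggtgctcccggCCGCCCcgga
PADI4: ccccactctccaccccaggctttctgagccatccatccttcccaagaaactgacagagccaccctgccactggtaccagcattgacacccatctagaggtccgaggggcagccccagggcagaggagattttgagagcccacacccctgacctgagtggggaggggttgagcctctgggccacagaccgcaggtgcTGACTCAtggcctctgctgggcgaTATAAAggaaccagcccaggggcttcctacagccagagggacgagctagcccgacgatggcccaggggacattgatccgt
PADI1: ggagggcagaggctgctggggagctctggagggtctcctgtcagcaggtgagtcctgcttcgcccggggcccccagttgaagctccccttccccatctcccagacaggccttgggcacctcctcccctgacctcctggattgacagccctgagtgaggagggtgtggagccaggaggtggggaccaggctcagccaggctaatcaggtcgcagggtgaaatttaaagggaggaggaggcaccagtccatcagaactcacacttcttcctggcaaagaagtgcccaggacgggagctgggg

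The PADI2 window was GC-rich, with 28 CpG dinucleotides and a GC content of 69%, and 74.1% of the 27305 promoters of this length held fewer CpGs. It held 6 GC boxes, some on the reverse strand and some overlapping or adjacent, and none of the other motifs. GC boxes are the letters bound by SP1 and related factors, and 44.6% of all promoters held at least 1. The PADI4 window held 7 CpGs, a TATA box beginning at position -30 and an AP-1 site beginning at position -54 from the start. Of all promoters, 12% held that TATA box and 7.76% that AP-1 site. The PADI1 window held 4 CpGs and none of these letters, and the PADI6 window (chr1:17371946-17372245, plus strand) held 4 CpGs and an NF-Y match on the reverse strand, as did 35.7% of all promoters in either orientation. The median promoter held 14 CpGs. These matches describe sequence only.

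The 5 genes lie side by side within 335 kb of chromosome 1 (17066761 to 17401699), 187.9 Mb from NUAK2, so the genes around them were examined next. None of the tested flanking genes came near the values of PADI2 and PADI4. Of the 20 genes next to the cluster, 10 on each side, 9 were tested, of which 3 were higher, 4 were lower and 2 did not pass the test, with a median log2 fold change of 0.09. That is 77.8% called, beside 54.5% of all genes tested.

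SDHB, a subunit of succinate dehydrogenase and the nearest tested gene on the PADI2 side, had 4740, 5104 and 5585 normalized counts in WT cells and 2745, 2886 and 2803 in NUAK2-CR cells. Its level fell in every NUAK2-CR library (log2 fold change -0.87, SE 0.07, adjusted p = 9.96e-07). The next gene outward, the lysosomal ATPase gene ATP13A2, moved the opposite way, from 5912, 5882 and 6007 to 13354, 14868 and 14806 (log2 fold change 1.27, SE 0.07, adjusted p = 1.65e-08). MFAP2, which encodes a microfibril protein, had low counts and a log2 fold change of 0.79 (adjusted p = 0.0478), and CROCC, which encodes a ciliary rootlet protein, had 0.09 (adjusted p = 0.527). The MFAP2 call was lost with DESeq2 (adjusted p = 0.0605) and under a replicate block. It was also lost without WT replicate 1 or 2 and without NUAK2-CR replicate 1 or 2. Genes on one side of the cluster thus moved in both directions.

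On the PADI6 side, the nearest tested gene RCC2, a regulator of chromosome condensation, fell by 0.43 on the log2 scale (adjusted p = 9.6e-04). ARHGEF10L, a guanine nucleotide exchange factor gene, fell by 0.73 (adjusted p = 9.43e-06), KLHDC7A rose by 1.46 (adjusted p = 3.76e-07) and ALDH4A1, a mitochondrial enzyme of proline breakdown, fell by 0.53 (adjusted p = 3.61e-04). All adjusted p-values here and below are from the edgeR quasi-likelihood test over all 14873 genes.

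Within 1 Mb of the cluster 17 other genes were tested, with log2 fold changes from -0.87 to 1.27 and a median of -0.31. In that window 8 were called lower and 3 higher, beside 28.2% lower and 26.3% higher of all genes tested, and 0 passed the log2 threshold of 2. Within 5 Mb 74 were tested, with a median of -0.24. One of these, the podoplanin gene PDPN, singled out after its value was seen, had a log2 fold change of -6.69, close to PADI2, and it was the single gene of that window past the threshold. Chromosome 1 as a whole had a median log2 fold change of -0.43 over 1537 genes, with 897 called lower and 137 higher. Over all genes the median was -0.01, with 28.2% called lower and 26.3% higher, so lower calls were more frequent on chromosome 1. The part of that shift of the chromosome in the members' values was not tested. Nor was its part in the values of other chromosome 1 genes named in this text. Among these are NUAK2, ENO1, PRMT6, NES, JUN, NFYC and ATP2B4, all lower, and DDAH1, which was higher.

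**Figure D3:**
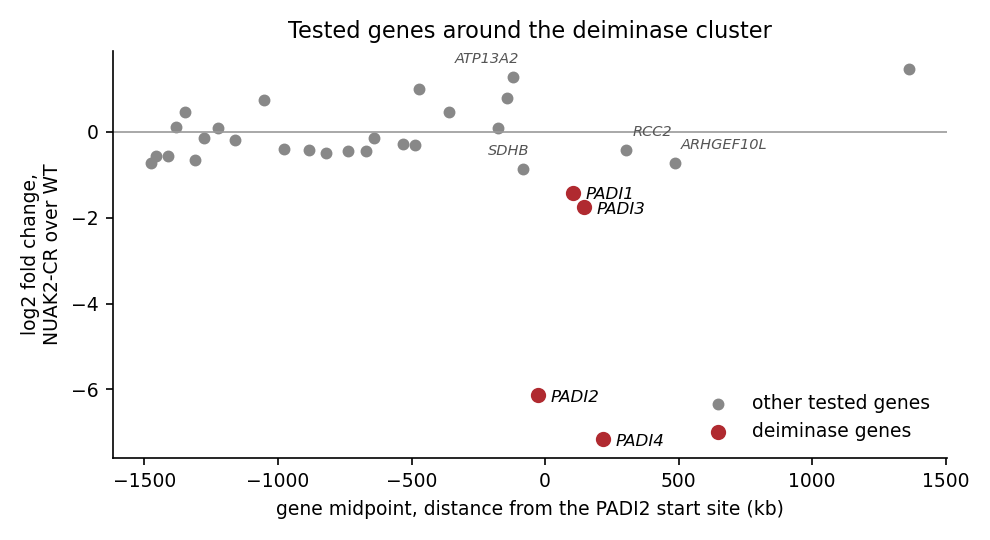
Log2 fold change (NUAK2-CR over WT) of tested genes against the distance in kb of the gene's midpoint from the PADI2 start site, with 4 members in red, other genes in grey and a line at 0. Other genes within 1 Mb lie between -0.87 and 1.27, and PADI2 and PADI4 lie at -6.14 and -7.16.

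Proteins known as targets of deimination were the first of the wider lists. Of 32 listed substrate genes 27 were tested: 6 were higher, 15 were lower and 6 did not pass the test, with a median log2 fold change of -0.38. That is 77.8% called beside 54.5% of all genes. GFAP, the intermediate filament of astrocytes and a classical PADI2 substrate, had 81980, 91430 and 91559 normalized counts in WT cells and 15701, 15568 and 13682 in NUAK2-CR cells. It fell by 2.56 on the log2 scale (SE 0.08, adjusted p = 2.74e-10) and moved in the same direction as PADI2. Vimentin (VIM), another intermediate filament, fell by 0.49 (adjusted p = 4.76e-05), and MBP, which encodes myelin basic protein, went from 125.8 ± 22 to 31.6 ± 3.38 normalized counts (SD, n = 3 each; adjusted p = 2.6e-05).

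The glycolytic enzymes ENO1 and PKM, also deimination targets, fell by 0.88 (adjusted p = 5.96e-07) and 0.28 (adjusted p = 0.00159) on the log2 scale. The DNA methyltransferase gene DNMT3A, named after its values were seen, fell by 1.20 (adjusted p = 3.22e-07). Of the secreted substrates, CXCL8 and CXCL12 had log2 fold changes of 0.12 (adjusted p = 0.767) and 0.01 (adjusted p = 0.896), both singled out after their values were seen. Fibronectin (FN1) had 23707, 32321 and 27379 normalized counts in WT cells and 284354, 257381 and 239689 in NUAK2-CR cells, 9.37-fold higher (adjusted p = 5.6e-10). COL2A1, which encodes type II collagen, was 5.55-fold higher, at 77.0 ± 26.6 against 427.3 ± 69.8 normalized counts (SD, n = 3 each; adjusted p = 2.33e-06). These libraries measure transcripts, and the citrulline content of the proteins was not measured here.

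Protein arginine methyltransferases modify the same residue as the deiminases. Of 9 listed genes 8 were tested, with 0 higher, 4 lower and 4 not passing the test. That is 50% called beside 54.5% of all genes tested, with a median log2 fold change of -0.14. PRMT5, which makes symmetric dimethylarginine, went from 4264 ± 251.6 to 2922 ± 101.7 normalized counts (SD, n = 3 each; log2 fold change -0.55, adjusted p = 3.11e-05). PRMT6, named after its values were seen, fell by 0.58 (adjusted p = 1.33e-05), and PRMT1, the main asymmetric methyltransferase, fell by 0.22 (adjusted p = 0.0217). PRMT2 had a log2 fold change of -0.16 at an adjusted p of 0.0492, which became 0.0735 with DESeq2. Its call was kept only with a minimum of 10 counts per library, a prior count of 2, or without WT replicate 1. It was lost under every other alternative. CARM1, a coactivator methyltransferase, had 0.13 (adjusted p = 0.178). Without WT replicate 3 or without NUAK2-CR replicate 1 the list's count of lower genes was 2.

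The enzymes that make or use free citrulline and arginine moved in both directions. Of 16 listed 11 were tested, with 3 higher, 5 lower and 3 not passing the test. That is 72.7% called beside 54.5% of all genes tested, with a median log2 fold change of -0.25. ASS1, which joins free citrulline to aspartate, went from 963.2, 1047 and 979.3 normalized counts to 3004, 3104 and 3470, 3.20-fold higher (adjusted p = 5.08e-09). CPS1, a mitochondrial urea cycle enzyme named after its values were seen, rose by 1.47 on the log2 scale (adjusted p = 8.35e-08), and DDAH1, which releases citrulline from methylated arginine, rose by 0.32 (adjusted p = 0.00228). ASL, the enzyme after ASS1, fell by 0.53 (adjusted p = 5.53e-04), OAT, an ornithine enzyme, fell by 0.73 (adjusted p = 1.88e-06), and GATM, an arginine-using enzyme of creatine synthesis named after its values were seen, fell by 1.09 (adjusted p = 1.47e-05). NOS2, the inducible nitric oxide synthase, had 52, 22 and 18 counts in the WT libraries, and 4, 0 and 0 remained in the NUAK2-CR libraries. Its log2 fold change was -3.90 (adjusted p = 0.00124), and -2.93 with a prior count of 2. Without NUAK2-CR replicate 1, which holds all 4 reads of its group, the fitted value was -7.73 and is no bound.

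Factors reported to act on PADI promoters or genes were listed next. Of 16 listed regulators 15 were tested, with 7 higher, 3 lower and 5 not passing the test. That is 66.7% called beside 54.5% of all genes tested, with a median log2 fold change of 0.21. JUND, an AP-1 subunit named after its values were seen, was 2.12-fold higher, from 2551, 2456 and 2540 to 5059, 5532 and 5426 normalized counts (adjusted p = 5.46e-08). The AP-1 subunit JUN fell by 0.28 on the log2 scale (adjusted p = 0.00234) while FOSL2 rose by 0.19 (adjusted p = 0.0213). SP1 and the related SP3, both named after their values were seen, had log2 fold changes of 0.42 (adjusted p = 2.78e-04) and 0.13 (adjusted p = 0.118). NFYA, NFYB and NFYC, subunits of the factor that binds CCAAT boxes, were all named after their values were seen. Their log2 fold changes were 0.84 (adjusted p = 4.23e-07), 0.56 (adjusted p = 6.52e-04) and -0.79 (adjusted p = 3.56e-06). NFYC and JUN lie on chromosome 1, whose median log2 fold change was -0.43. HIF1A, the hypoxia factor, had a log2 fold change of -0.21 (adjusted p = 0.0396). The HIF1A call was lost under the replicate block (adjusted p = 0.0541) and without any 1 of 5 libraries, WT replicates 2 and 3 and the NUAK2-CR replicates (adjusted p from 0.071 to 0.181).

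Deiminases need calcium, so genes of calcium entry and release were listed as well. Of 20 listed 18 were tested, with 8 higher, 2 lower and 8 not passing the test. That is 55.6% called beside 54.5% of all genes tested, with a median log2 fold change of 0.25. ITPR3, a calcium release channel of the endoplasmic reticulum, went from 6886 ± 870.9 to 10724 ± 867.1 normalized counts (SD, n = 3 each; adjusted p = 9.49e-05), and ORAI2, a store-operated channel subunit, rose by 0.36 on the log2 scale (adjusted p = 8.97e-04). The plasma membrane pumps differed in direction. ATP2B1, named after its values were seen, rose by 1.16 (adjusted p = 1.34e-07) and ATP2B4, on chromosome 1, fell by 0.98 (adjusted p = 1.08e-06). The reticulum pump ATP2A2 had 0.14 (adjusted p = 0.133). Of the 7 listed genes of the subcortical maternal complex that PADI6 belongs to, 4 had no count in any library and 2 were tested. TLE6 rose by 0.96 (adjusted p = 0.0126) and ZBED3 had 0.32 (adjusted p = 0.156). TLE6 had 69, 76 and 147 counts in the NUAK2-CR libraries. Without NUAK2-CR replicate 3 its log2 fold change was 0.61 and the call was lost (adjusted p = 0.0897).

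**Figure D4:**
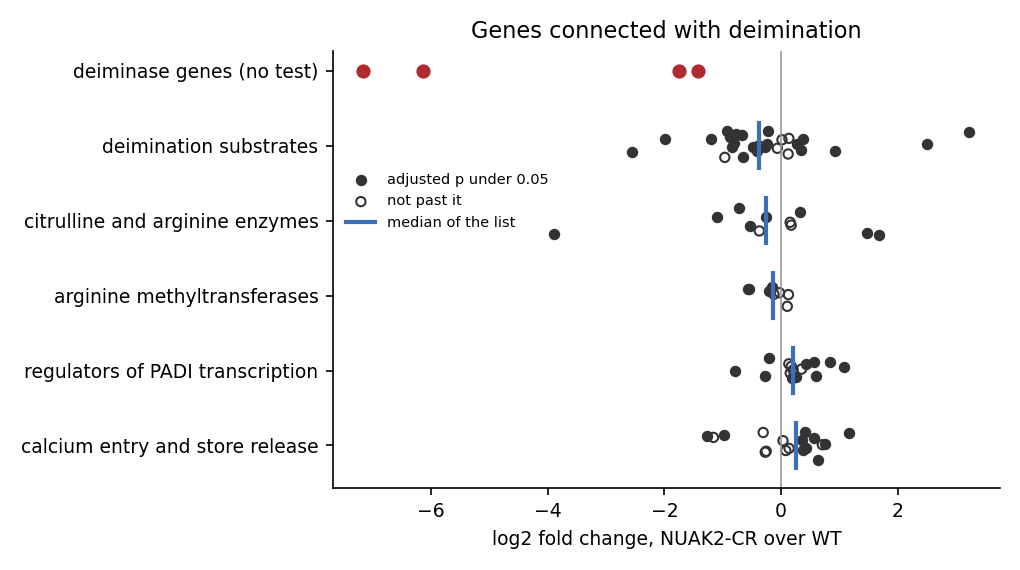
Log2 fold change (NUAK2-CR over WT) of 4 members (red, no test) and of each tested gene of 5 lists, a row per list, with filled points for an adjusted p under 0.05, open points otherwise and a blue bar at the list median. Vertical scatter within a row only separates points. Substrates run from GFAP at -2.56 to FN1 at 3.23, and the methyltransferases stay close to 0.

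Because PADI4 is best known from neutrophils and PADI2 from glia, markers of other cell types were set beside the members. Of 12 neutrophil markers 6 had no count in any library, the granule protein gene MPO among them, and their summed level was 6.75 to 28.0 normalized counts in WT cells and 17.8 to 19.3 in NUAK2-CR libraries. The 1 tested, LTF, was higher (log2 fold change 1.92, adjusted p = 0.011), while PADI4 stood above 1200 in WT cells. LTF had only 4, 4 and 6 counts in WT libraries and 14, 14 and 12 in NUAK2-CR libraries. Its call was lost without WT replicate 1 (adjusted p = 0.054). Of 7 tested glioma and astrocyte markers 6 were lower, GFAP, NES, CD44, SOX2, S100B and VIM, and SLC1A3 did not pass the test. Over all genes tested 28.2% were called lower and 26.3% higher, the background for this count and for the other marker counts. The log2 fold changes were -1.56 for NES, a neural progenitor filament (adjusted p = 9.42e-09), -1.54 for CD44 (adjusted p = 3.81e-08), -1.11 for the stem cell factor SOX2 (adjusted p = 6.55e-08) and -2.60 for S100B (adjusted p = 4.07e-05). The summed level of the list was 323314 to 357951 normalized counts in WT cells and 138211 to 144522 in NUAK2-CR libraries. These markers moved with PADI2, and their part in its lower level was not tested.

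Of 8 macrophage and microglia markers 2 were tested and both were lower, CD68 (log2 fold change -1.59, adjusted p = 3.08e-07) and CSF1R (-2.46, adjusted p = 4.94e-07). Their list summed to 860.2 to 971.7 normalized counts in WT cells and 242.5 to 293.1 in NUAK2-CR libraries, with AIF1, P2RY12 and TYROBP at 0 in every library. Of 8 oligodendrocyte markers 2 were tested and 1, MBP, was lower, with MOG, MAG and OLIG2 at 0 throughout and sums of 118.2 to 161.1 and 38.4 to 51.9. Of 8 keratinocyte markers, the setting of PADI1 and PADI3, 4 were tested and KRT10 was lower (log2 fold change -0.65, adjusted p = 2.24e-04). Their sums were 1780 to 2139 and 1263 to 1465, and KRT1, LORICRIN and IVL were at 0 in every library. Of 8 oocyte markers 2 were tested, 0 passed the test, and their sums of 55.9 to 68.4 and 37.3 to 73.7 overlapped. The part of other cell types in the members' values was not tested.

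The genes whose pattern over the 6 libraries was most like each member's were found by Pearson's r of log2 CPM (counts scaled to library size) among 14789 genes. Since the libraries form separate groups, r mostly reflects the gap between them, and 529, 556, 468 and 131 genes had r over 0.99 with PADI1, PADI2, PADI3 and PADI4. For PADI2 the closest were VAMP3, CHST1 and JAKMIP2-AS1 (r = 0.9998 each), with log2 fold changes of -0.34, -2.21 and -5.64. Only JAKMIP2-AS1, an antisense transcript, was near PADI2 in log2 fold change too, though lower in level. It had 1226, 1218 and 1233 normalized counts in WT cells and 22.9, 21.7 and 28.5 in NUAK2-CR libraries. For PADI4 the closest were PCK1 (r = 0.9997), MIPEP (r = 0.9991) and MRPS27 (r = 0.9989), with log2 fold changes of -5.63, -0.77 and -0.49. PCK1, the gluconeogenic enzyme, had 404.5, 313.5 and 350.4 normalized counts in WT cells and 2.54, 4.82 and 13.2 in NUAK2-CR libraries. NUAK2-CR replicate 3 was the highest of its group for PCK1 as for PADI4. PCK1 was picked for its likeness to PADI4 over these same libraries, so nothing is read from that shared order.

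For PADI3 the closest genes were PBX3 (r = 0.9996), DIRAS3 (r = 0.9995) and DHRS2 (r = 0.9993), with log2 fold changes of -0.60, -1.87 and -2.61. For PADI1 the cyclin gene CCNB2 was among the closest (r = 0.9997), with a log2 fold change of -0.997. Counts of CARM1, ORAI2, ZBED3, SOX2, KRT10, NFYA, NFYC and JAKMIP2-AS1 are uncertain, since each overlaps another gene with at least 10% of its own level. For the counting, the study gives default parameters and names no strand setting.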

How the data were processed

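Per the labels and the study's methods, RNA was extracted with TRIzol and polyadenylated RNA was made into libraries with an Illumina Stranded mRNA Prep kit for paired-end NovaSeq sequencing. The submitters' processing notes name bcl2fastq, Trimmomatic, HISAT2, featureCounts and hg38, and the authors analysed expression with DESeq2. The deposited values are raw read counts per gene made by the authors with featureCounts, with no normalization. The study's methods give default parameters for featureCounts, and the sources used here name neither the gene annotation nor a strand setting. A symbol was found for 27745 of 28395 identifiers, leaving 650 without. The members and gene lists were chosen with earlier results of these data known.

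Counts were analysed in R 4.3.3 with edgeR 4.0.16 (filterByExpr, TMM, glmQLFit, glmQLFTest, prior count 0.125), with Benjamini-Hochberg adjustment over 14873 genes. Called genes had an adjusted p under 0.05, and DEGs also a log2 fold change beyond 2 in either direction, following the study. The common biological coefficient of variation was 0.101, and the fit was tested on simulated data. SE is the standard error of the log2 fold change. Named genes were every member, NUAK2, list genes that were DEGs, otherwise up to 4 of each list with the highest mean, the 4 nearest tested neighbors on each side, and the 3 genes most alike to each tested member with a mean of at least 10 counts (log2 CPM, prior count 2); genes outside this rule are marked in the text, and some genes that the rule names are not reported here. From the cell type marker lists, genes that passed the test were named with their values. Gene coordinates and promoters are RefSeq GRCh38.p14, and transcripts and exons are GENCODE annotations of hg38.

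The alternatives were DESeq2 1.42.0, RLE and library size scaling, a minimum of 1 count in all, a minimum of 10 counts per library, a prior count of 2, each library left out in turn, and a replicate block. Tables and figures were made in Python 3.11.15 (pandas 2.3.3, matplotlib 3.10.9).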

Additional observations from a re-analysis of the deposited data

How the results depend on the processing

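The number of DEGs was 702. It was 899 with DESeq2, 969 with no filter beyond a single count, 637 with a prior count of 2, and 339 when at least 10 counts were required in every library, a filter that also removes PADI4, which then has no value. PADI6 was given no fold change, since both groups are at or under the limit that a count of 0 allows. PADI1, PADI2 and PADI3 stayed within their replicate spread under every alternative run. With 1 library left out in turn, their log2 fold changes ranged from -1.46 to -1.38, from -6.23 to -6.08 and from -1.80 to -1.68. PADI4 ranged from -8.42 (without NUAK2-CR replicate 3) to -6.74. The same exercise gave 7190 to 8481 genes called beside 8107 in the full set. It gave 2 to 5 arginine methyltransferases called (4 with all libraries), 0 to 2 genes of the subcortical maternal complex (1 with all libraries), 18 to 22 substrates, 7 to 8 citrulline and arginine enzymes, 8 to 13 regulators, 10 to 11 calcium genes and 6 to 7 neighbors. CROCC, which did not pass the test, went from 0.09 to between -0.018 (without WT replicate 2) and 0.209. Of 63 genes followed, 7 lost their call under at least 1 alternative (PRMT1, PRMT2, HIF1A, FOSL2, MFAP2, LTF and TLE6) and 3 gained one, CARM1 and ZBED3 among them. No scaling moved the median of all genes by more than 0.009 on the log2 scale. The largest move under any alternative was 0.019, without NUAK2-CR replicate 1. The cause of these changes was not tested. Depth limits PADI6, NOS2 and, in NUAK2-CR cells, PADI4.

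The groups share replicate numbers. Deviations of same-numbered libraries had correlations of 0.0428, -0.0352 and 0.0478 for numbers 1, 2 and 3, although 4 of 6 libraries correlated best with their own number. These values do not settle whether the libraries were paired. No label gives a pairing, so the main fit did not treat them as pairs. A replicate block gave 8167 genes called, 709 DEGs and log2 fold changes of -6.14 for PADI2 and -7.16 for PADI4.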
